A study of Mus musculus with 8 samples.

Results

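The MHC class II genes were taken as 10 rows of the deposited gene count table, out of 25913 genes in all, chosen by gene symbol: Cd74, H2-Aa, H2-Ab1, H2-Eb1, H2-DMa, H2-DMb1, H2-DMb2, H2-Oa, H2-Ob and Ciita. Each symbol matched a single row, and all 10 passed the filter on low counts. The mice were C57BL/6J animals of 40 weeks, their olfactory epithelium was dissected for RNA, and the study was on a homozygous, tissue-specific knockout of Igf1r, the receptor for insulin-like growth factor 1. The design text speaks of olfactory sensory neurons, whereas the samples are labelled as dissected epithelium, so neurons, supporting cells and resident immune cells were sequenced together. The 8 poly-A libraries formed 2 groups of 4, with IGF1R_flfl in the title (numbered 1, 2, 13 and 3) or OMP_IGF1R (numbered 11, 12, 17 and 18). The labels name neither the recombinase nor the promoter that drives it, and they do not say whether each library is a separate mouse, so each p-value reflects only how these libraries vary, which may be technical.

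The titles and the genotype field disagree. Libraries titled IGF1R_flfl, called the IGF1R_flfl-titled set below, carry the genotype OMPIGF1 (KO) and the others, the OMP_IGF1R-titled set, carry OMPflfl (Ctrl). Igf1r was at 72.9, 55.5, 67.9 and 69.9 CPM in the IGF1R_flfl-titled set and at 49.6, 43.9, 34.5 and 40.5 CPM in the OMP_IGF1R-titled set, in the order of the numbers above (log2 fold change -0.66, SE 0.116, adjusted p = 0.0117, edgeR). The targeted gene was thus lower in the libraries titled OMP_IGF1R, against their genotype field, OMPflfl (Ctrl). The titles themselves do not say which group is the knockout. Groups are named by title throughout, CPM is the usual depth-scaled read count, here on TMM-scaled library sizes, and every log2 fold change is OMP_IGF1R over IGF1R_flfl. Total counts ran from 18802471 to 27793375 per library. The numbers in front of the titles also separate the groups, so whatever those numbers count and the genotype cannot be told apart. Mature sensory neuron genes, which mark the cells of the labelled tissue, were abundant in every library (Omp 4470 to 6734 CPM in the IGF1R_flfl-titled set and 1708 to 2185 CPM in the OMP_IGF1R-titled set). In bulk RNA, fewer cells of a type and less RNA per cell cannot be told apart.

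MHC class II molecules display peptides from engulfed material to helper T cells. An alpha and a beta chain pair in the endoplasmic reticulum around the invariant chain, Cd74, which blocks the groove and steers the complex to endosomes. There H2-DM, built of H2-DMa with H2-DMb1 or H2-DMb2, swaps the last piece of the invariant chain for peptide, and H2-DO, built of H2-Oa and H2-Ob, holds H2-DM back, mainly in B cells. Ciita is the coactivator that switches the whole set on in dendritic cells, B cells and activated macrophages, and under interferon gamma in other cells. It binds no DNA itself and is recruited by the RFX complex and NF-Y, which sit on the X and Y boxes shared by class II promoters.

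The promoters are shown because these boxes are what class II genes are known to share. RefSeq windows (GRCm38.p6) matched 7 members in 8 windows. No entry was found for Cd74, H2-Ab1 and Ciita. In the 250 bases before each start site, the pair searched was GCAAC or TGATG (letters of the X box) followed on the strand of the gene, after 10 to 40 bases, by TGATTGG (the Y box, which holds the inverted CCAAT of NF-Y). These letters were chosen with the sequences in view. Each line below runs 5′ to 3′ on the strand of the gene, with the matched elements in capitals.
H2-Aa: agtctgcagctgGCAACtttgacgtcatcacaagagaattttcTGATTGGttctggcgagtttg
H2-Eb1: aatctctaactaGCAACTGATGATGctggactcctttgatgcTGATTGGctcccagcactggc
H2-DMb1: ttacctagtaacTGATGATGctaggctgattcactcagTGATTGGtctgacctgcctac
H2-DMb2: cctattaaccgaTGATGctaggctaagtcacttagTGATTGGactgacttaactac
H2-Oa: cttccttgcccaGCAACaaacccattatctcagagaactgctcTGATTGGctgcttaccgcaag
H2-Ob: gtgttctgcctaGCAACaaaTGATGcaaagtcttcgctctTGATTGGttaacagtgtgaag

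The stretches lie at chr17:34287853-34287916 on the minus strand for H2-Aa, and on the plus strand at chr17:34305764-34305826 for H2-Eb1, chr17:34153090-34153148 for H2-DMb1, chr17:34145122-34145177 for H2-DMb2, chr17:34092291-34092354 for H2-Oa and chr17:34238806-34238866 for H2-Ob. The pair was found in 6 of the 8 member windows and in 105 of 32817 windows of all genes (0.32%). TGATTGG alone was in 7.22% of all windows on either strand, GCAAC in 29.9% and TGATG in 34.5%. From GCAAC to the Y box there were 26 bases in H2-Aa and H2-Oa, 25 in H2-Eb1 and 23 in H2-Ob. From the nearest TGATG within those 10 to 40 bases there were 18 bases in both H2-DMb1 and H2-DMb2, 17 in H2-Eb1 and 15 in H2-Ob. The Y box stood between 45 bases (H2-Oa) and 92 bases (H2-DMb2) before the start site. For H2-DMb2 the RefSeq start site lies 1942 bases after the start of the deposited row. The 2 windows without the pair were those of H2-DMa, whose RefSeq start sites lie 12350 and 9664 bases before the start of the deposited row. H2-DMb1 and H2-DMb2 thus carry nearly the same letters in this stretch, and their fold changes had opposite signs, neither of which passed the test, as given below.

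None of the 10 class II genes passed the threshold (adjusted p under 0.05, edgeR's quasi-likelihood test, Benjamini-Hochberg over 17381 genes), against 8.20% of all genes tested, 2.83% higher and 5.37% lower. Their adjusted p-values ran from 0.123 to 0.890. Before adjustment 4 members, Cd74, H2-DMa, H2-DMb1 and Ciita, had p under 0.05, all 4 with a fold change above 0, against 9.35% of all genes with such a p and that direction. The fold change was above 0 for 9 of the 10, against 47.5% of all genes, and the median was 0.33 for the members and -0.01 for all genes. No member had groups that did not overlap, against 16.9% of all genes. With DESeq2 in place of edgeR 1 member, Cd74, was called higher (adjusted p = 0.0287).

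**Figure D1:**
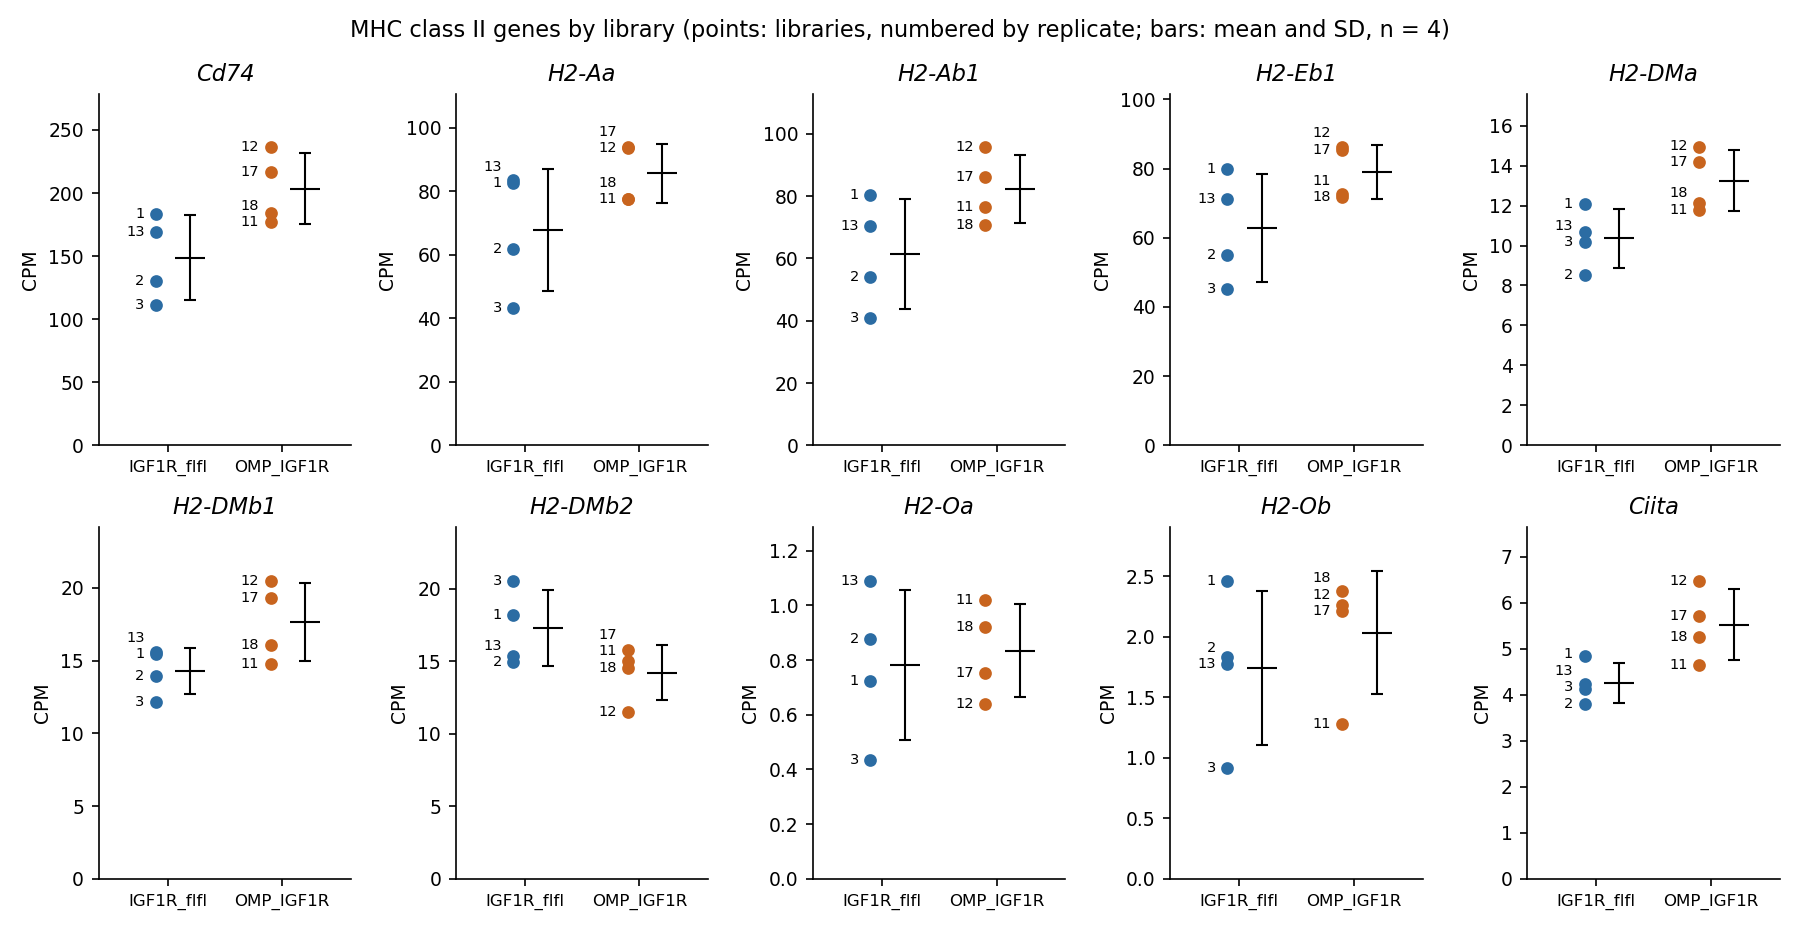
CPM of each of the 10 class II genes (vertical axes, each starting at 0) in the 4 libraries titled IGF1R_flfl and the 4 titled OMP_IGF1R; points are libraries labelled by replicate number and bars give the mean and SD. The groups overlap in every panel, and IGF1R_flfl 3 is the lowest library in 7 of the 10 panels.

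The invariant chain was the most abundant member. Cd74 (chromosome 18, 60803848 to 60812646, GRCm38) had 183.7, 130.7, 169.3 and 111.2 CPM in replicates 1, 2, 13 and 3 of the IGF1R_flfl-titled set. In replicates 11, 12, 17 and 18 of the OMP_IGF1R-titled set it had 176.9, 236.4, 216.8 and 184.0 CPM, and values below keep this order of libraries. The lowest pair was IGF1R_flfl 3 and 2, the highest pair OMP_IGF1R 12 and 17, and IGF1R_flfl 1 lay between OMP_IGF1R 11 and 18. The group means, 149 ± 33.6 and 204 ± 27.9 CPM (SD, n = 4 per group), gave a log2 fold change of 0.45 (SE 0.160, 95% interval 0.09 to 0.81, adjusted p = 0.123, edgeR).

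The classical chains gave the same picture at lower levels. H2-Aa, the alpha chain of the I-A molecule (chromosome 17, 34282744 to 34287827), was at 82.6, 61.9, 83.5 and 43.4 CPM in the IGF1R_flfl-titled set and 77.4, 93.5, 93.9 and 77.6 CPM in the OMP_IGF1R-titled set. IGF1R_flfl 1 and 13 lay above OMP_IGF1R 11 and 18. The log2 fold change was 0.34 (SE 0.186, interval -0.08 to 0.75, adjusted p = 0.316, edgeR). H2-Ab1, its beta chain partner (34263209 to 34269418), was at 80.4, 54.0, 70.5 and 40.8 CPM against 76.5, 95.7, 86.3 and 70.9 CPM. IGF1R_flfl 1 again fell within the range of the other group, and the log2 fold change was 0.42 (SE 0.189, adjusted p = 0.215, edgeR). H2-Eb1, the beta chain of the I-E molecule (34305883 to 34316199), was at 80.0, 55.2, 71.2 and 45.3 CPM against 72.8, 86.2, 85.5 and 71.7 CPM. IGF1R_flfl 1 lay above OMP_IGF1R 11 and 18, and the log2 fold change was 0.33 (SE 0.160, adjusted p = 0.253, edgeR). Without IGF1R_flfl 3 the fold changes were smaller, at 0.18 for H2-Aa, 0.28 for H2-Ab1 and 0.21 for H2-Eb1. Mice of the C57BL/6 background are known to make no I-E alpha chain, so the abundance of H2-Eb1 RNA does not stand for surface I-E. H2-Eb2, a further beta chain gene, had too few counts to be tested.

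Per kilobase of transcript, the level of Cd74 was 105 ± 23.8 CPM in the IGF1R_flfl-titled set and 144 ± 19.8 CPM in the OMP_IGF1R-titled set (SD, n = 4 each). Next in order of level per kilobase came H2-Aa (60.1 ± 16.9 and 75.9 ± 8.27), H2-Ab1 (50.7 ± 14.5 and 67.9 ± 9.05) and H2-Eb1 (37.7 ± 9.34 and 47.4 ± 4.72). The neighbours H2-Aa and H2-Ab1 did not differ beyond their spread over libraries, but within each library the H2-Aa level per kilobase was above that of H2-Ab1, by a ratio of 1.05 to 1.27. Cd74 stood at 1.96 to 2.34 times H2-Ab1 per kilobase and H2-Eb1 at 0.65 to 0.81 times. The summed level of the members differed more, by 1.97 times between the lowest and the highest library. The 10 members summed to 480, 346, 443 and 289 CPM in the IGF1R_flfl-titled set and to 452, 568, 540 and 456 CPM in the OMP_IGF1R-titled set. Cd74 made up 38.2, 37.8, 38.2 and 38.5% of that sum in the first group and 39.1, 41.6, 40.1 and 40.4% in the second, without overlap. That share was noticed in these data and was not tested.

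**Figure D2:**
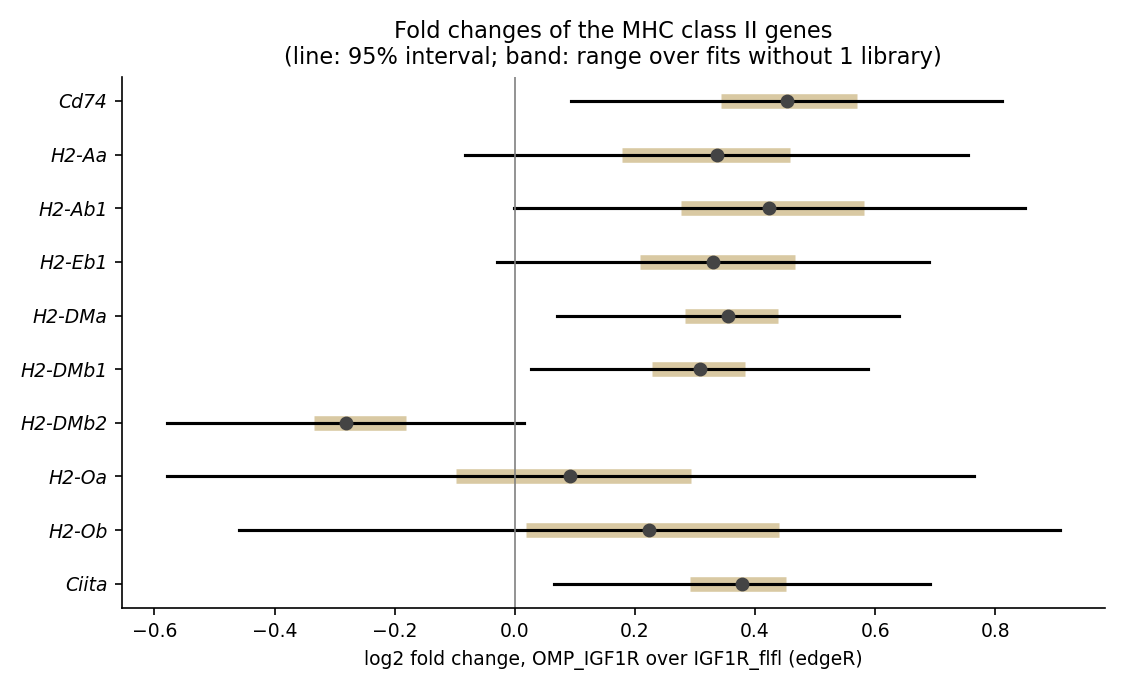
log2 fold change of each class II gene, OMP_IGF1R over IGF1R_flfl (horizontal axis, edgeR), with its 95% interval as a line and, as a band, the range over fits that leave out 1 library each. Cd74, H2-DMa, H2-DMb1 and Ciita have intervals above 0, H2-DMb2 is the single point below 0, and H2-Oa is the single gene whose band crosses 0.

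The 3 genes of the peptide editor H2-DM split. H2-DMa, the alpha chain (34135182 to 34139101), was at 12.1, 8.54, 10.7 and 10.2 CPM in the IGF1R_flfl-titled set and 11.8, 14.9, 14.2 and 12.1 CPM in the OMP_IGF1R-titled set. A single library titled IGF1R_flfl, replicate 1, reached into the other group, and the log2 fold change was 0.35 (SE 0.127, interval 0.07 to 0.64, adjusted p = 0.128, edgeR). H2-DMb1, the more widely described beta chain (34153072 to 34160223), was at 15.4, 13.9, 15.6 and 12.2 CPM against 14.8, 20.5, 19.3 and 16.1 CPM, with OMP_IGF1R 11 inside the range of the other group. Its log2 fold change was 0.31 (SE 0.125, adjusted p = 0.173, edgeR).

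H2-DMb2, the second beta chain gene (34143307 to 34151553), was the single member with a fold change below 0. It was at 18.2, 14.9, 15.4 and 20.5 CPM in the IGF1R_flfl-titled set and 15.0, 11.5, 15.8 and 14.6 CPM in the OMP_IGF1R-titled set. Its highest library was IGF1R_flfl 3, the lowest for Cd74, and its lowest was OMP_IGF1R 12, the highest for Cd74. The log2 fold change was -0.28 (SE 0.132, interval -0.58 to 0.02, adjusted p = 0.237, edgeR), and it was below 0 in all 15 alternative fits, at -0.18 without IGF1R_flfl 3. All 4 libraries titled OMP_IGF1R lay below the median of the other group, but the groups overlapped.

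The balance of the 2 beta chain genes therefore shifted from library to library. Per kilobase, the ratio of H2-DMb2 to H2-DMb1 was 1.16, 1.06, 0.97 and 1.66 in the IGF1R_flfl-titled set and 0.9996, 0.55, 0.81 and 0.89 in the OMP_IGF1R-titled set. IGF1R_flfl 3 and OMP_IGF1R 12 stood at the ends. Both beta chain genes together, over H2-DMa per kilobase, came to 3.26, 3.97, 3.40 and 3.77 in the first group and 2.96, 2.52, 2.91 and 2.96 in the second, without overlap. Cd74 over H2-DMb2 in CPM was 10.1, 8.75, 11.03 and 5.41 against 11.8, 20.6, 13.7 and 12.6, also without overlap. These ratios were noticed in these data and were not tested. The 2 genes are close copies: their principal transcripts were identical at 88.8% of 1252 aligned bases, and 27.2% of the 50-base windows of H2-DMb1 and 26.8% of those of H2-DMb2 occur in the other. How the counting treated reads that fit both genes is not given in the sources used here, so the split of counts between them is uncertain.

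The genes of H2-DO had few counts. H2-Oa (34092340 to 34095234), with 11 to 24 counts per library, was at 0.72, 0.88, 1.09 and 0.44 CPM in the IGF1R_flfl-titled set and 1.02, 0.64, 0.75 and 0.92 CPM in the OMP_IGF1R-titled set (log2 fold change 0.09, SE 0.299, adjusted p = 0.890, edgeR). H2-Ob (34238903 to 34245907), with 23 to 68 counts, was at 2.46, 1.83, 1.77 and 0.91 CPM against 1.28, 2.26, 2.21 and 2.38 CPM (log2 fold change 0.22, SE 0.305, adjusted p = 0.709, edgeR). For both genes IGF1R_flfl 3 was the lowest library and the highest was also titled IGF1R_flfl, so the groups overlapped over nearly their whole range. The 95% intervals of the fold change ran from -0.58 to 0.76 for H2-Oa and from -0.46 to 0.91 for H2-Ob. Without IGF1R_flfl 3 the fold change of H2-Oa was -0.10, and without OMP_IGF1R 11 it was -0.01. That of H2-Ob was 0.02 when IGF1R_flfl 3 was left out and 0.44 when IGF1R_flfl 1 was, and it was 0.14 with OMP_IGF1R 18 left out and 0.39 with OMP_IGF1R 11 left out.

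Ciita (chromosome 16, 10488178 to 10527564), the coactivator, had 91 to 172 counts per library. It was at 4.85, 3.81, 4.22 and 4.12 CPM in the IGF1R_flfl-titled set and 4.64, 6.48, 5.71 and 5.26 CPM in the OMP_IGF1R-titled set. OMP_IGF1R 11 was the single library of its group below the highest of the other. In GENCODE M21 Ciita overlaps the antisense gene Dexi, although the deposited bounds of the pair do not, and without a stated strand setting reads of both cannot be told apart there. Group means of 4.25 ± 0.437 and 5.52 ± 0.774 CPM (SD, n = 4 per group) gave a log2 fold change of 0.38 (SE 0.139, interval 0.06 to 0.69, adjusted p = 0.138, edgeR). Per kilobase the level of Ciita (0.708 and 0.919 CPM) was of the order of H2-Oa (0.719 and 0.766) and H2-Ob (0.653 and 0.761). Between these and the classical chains lay H2-DMb2 (12.1 and 9.98), H2-DMb1 (10.2 and 12.6) and H2-DMa (6.25 and 7.99).

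Across the 8 libraries most class II genes varied together. Pearson correlations of log2 CPM among Cd74, H2-Aa, H2-Ab1 and H2-Eb1 were 0.95 to 0.99 and Spearman's rho 0.81 to 1 in the 6 pairs. Over the 79 relations computed, their exact two-sided permutation p-values adjusted to at most 0.00620 for r and 0.0573 for rho. Without the 2 libraries farthest from the median of the first gene, IGF1R_flfl 2 and 3, r was 0.82 to 0.95. Taken as deviations from each group's mean, r was 0.95 to 0.99, so the tie did not rest on the difference between the groups. With H2-DMa, H2-DMb1 and Ciita added, all 21 pairs had r of 0.70 to 0.99. Ciita had r of 0.70 to 0.88 with Cd74, H2-Aa, H2-Ab1 and H2-Eb1 (adjusted p = 0.0128 to 0.0782, exact permutation test), and 0.51 to 0.75 as deviations from group means. H2-DMb2 had r below 0 with each of the other 9 members (-0.73 to -0.41), but none held after adjustment (smallest adjusted p = 0.0760, exact permutation test). Without IGF1R_flfl 3 that range was -0.54 to 0.26, so it rested in part on this library.

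**Figure D3:**
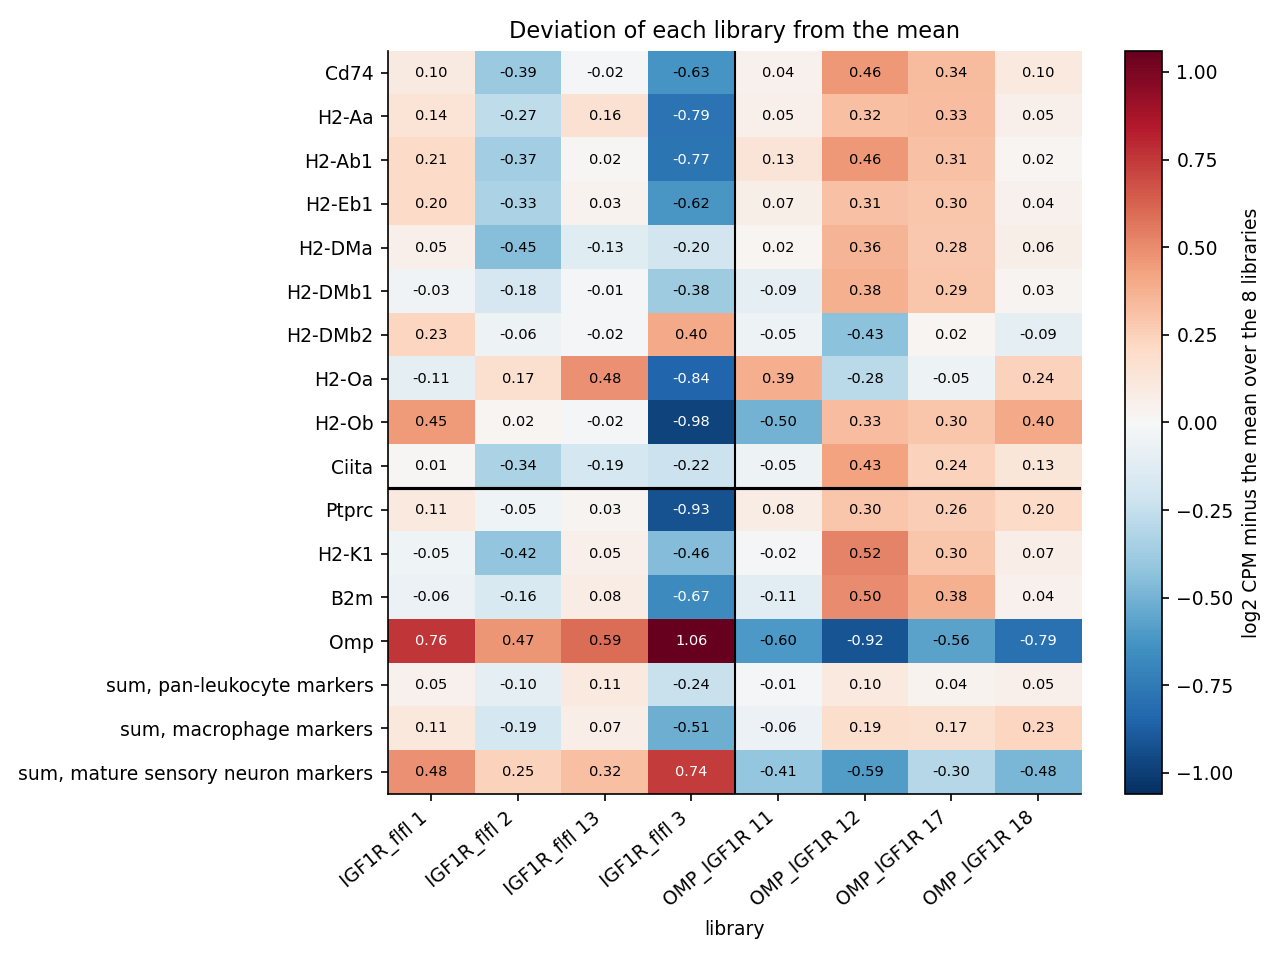
log2 CPM of each class II gene (upper 10 rows) and of marker genes or summed marker lists (lower rows) in each library (columns), minus its mean over the 8 libraries; red is above and blue below the mean. Most class II rows share the colours of Ptprc, H2-K1 and B2m, with IGF1R_flfl 3 low and OMP_IGF1R 12 and 17 high, and the H2-DMb2 row is high in IGF1R_flfl 3 and low in OMP_IGF1R 12.

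Some leukocyte genes and class I genes varied with class II. Ptprc, the CD45 antigen of all leukocytes, was at 13.5, 12.2, 12.8 and 6.62 CPM in the IGF1R_flfl-titled set and 13.3, 15.4, 15.1 and 14.5 CPM in the OMP_IGF1R-titled set (log2 fold change 0.37, SE 0.195, adjusted p = 0.292, edgeR). IGF1R_flfl 3 lay well below the other 7 libraries. Cd74 and Ptprc put the 8 libraries in the same order (rho 1, adjusted p = 0.00131, and r 0.87, adjusted p = 0.000980, exact permutation tests). Without IGF1R_flfl 2 and 3, r was 0.93. The ratio of Cd74 to Ptprc was 13.6, 10.7, 13.2 and 16.8 in the first group and 13.3, 15.3, 14.4 and 12.7 in the second, so per unit of Ptprc the groups overlapped widely. Cd74 also followed H2-K1, a classical class I heavy chain (r 0.96, rho 0.90, adjusted p = 0.00620 and 0.0212, exact permutation tests, and r 0.93 without IGF1R_flfl 2 and 3). The ratio of Cd74 to H2-K1 stayed between 0.77 and 0.96 in the 8 libraries. Not every leukocyte measure did so. The summed pan-leukocyte genes had r 0.88 (adjusted p = 0.0176) and rho 0.57 (adjusted p = 0.244, exact permutation tests) with Cd74, and r fell to 0.27 without IGF1R_flfl 2 and 3. Lcp1 alone gave 231 to 282 CPM of that sum in the first group and 246 to 265 CPM in the second. Its log2 fold change was 0.01, and the sum without Lcp1 was not computed. The summed macrophage genes had r 0.91 and rho 0.90 (adjusted p = 0.00967 and 0.0212, exact permutation tests), and r 0.55 without IGF1R_flfl 2 and 3. Lyz2 alone gave 179 to 297 CPM of that sum in the first group and 237 to 343 CPM in the second. The sum without Lyz2 was not computed. Csf1r, the growth factor receptor of macrophages, had r 0.67 and rho 0.64 (adjusted p = 0.114 and 0.185, exact permutation tests), and r 0.10 without IGF1R_flfl 2 and 3. The summed T cell genes had r 0.0013 and rho 0.19 (adjusted p = 0.996 and 0.729, exact permutation tests), and r 0.23 without them. In IGF1R_flfl 2, Thy1 alone gave 62.5 of the 67.1 CPM of that sum. The r over all 8 libraries thus says little about the other T cell genes.

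Marker lists of cell types known to carry class II, or to lie beside such cells, were followed next. The 10 pan-leukocyte genes summed to 315 to 400 CPM in the IGF1R_flfl-titled set and 370 to 400 CPM in the OMP_IGF1R-titled set. None of these 10 was called, all had fold changes above 0 (median 0.22), and 9 were lowest in IGF1R_flfl 3. The 15 macrophage genes summed to 335 to 516 and 457 to 559 CPM. None was called, all 15 had fold changes above 0 (median 0.23), and 14 were lowest in IGF1R_flfl 3. Adgre1, the F4/80 antigen, was at 7.10 to 10.4 and 9.83 to 12.4 CPM. Of 14 dendritic cell genes none was called higher and 1 was called lower with edgeR, against 1 in each direction with DESeq2. In edgeR's fit 8 of the 14 had fold changes above 0 (median 0.05). The gene called lower with edgeR was Naaa, a lysosomal amidase, at 84.2, 75.1, 82.2 and 94.7 CPM against 56.6, 49.8, 63.7 and 60.3 CPM (log2 fold change -0.55, SE 0.0900, adjusted p = 0.00944, edgeR). Levels in this list differed widely, from Xcr1 at 0.119 to 0.619 CPM up to Cd24a at 126 to 191 CPM. Which cells carried Naaa RNA was not tested. Itgax, which encodes CD11c and marks dendritic cells, was at 5.98, 5.64, 6.36 and 4.44 CPM against 7.76, 8.06, 7.65 and 7.22 CPM, without overlap (log2 fold change 0.45, SE 0.127, adjusted p = 0.0594, edgeR).

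Lymphocyte genes were low. Of 8 B cell genes tested 1 was called higher, Cd79b, a signalling chain of the B cell receptor, at 1.12, 1.07, 0.82 and 0.67 CPM against 1.63, 1.58, 1.59 and 2.11 CPM (log2 fold change 0.90, SE 0.218, adjusted p = 0.0351, edgeR). That call was lost on leaving out any single library of 6 (IGF1R_flfl 13 or 3, OMP_IGF1R 11, 12, 17 or 18). All 8 had fold changes above 0 (median 0.70), and the B cell sum was 6.59, 7.05, 5.63 and 2.82 CPM against 7.86, 9.46, 8.10 and 10.02 CPM. Cd3e, part of the T cell receptor complex, was at 0.534 to 1.09 and 0.922 to 1.62 CPM, and none of 9 T cell genes was called with edgeR (median 0.63), against 1 called higher with limma. The part that these cell types played in the class II levels was not tested.

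**Figure D4:**
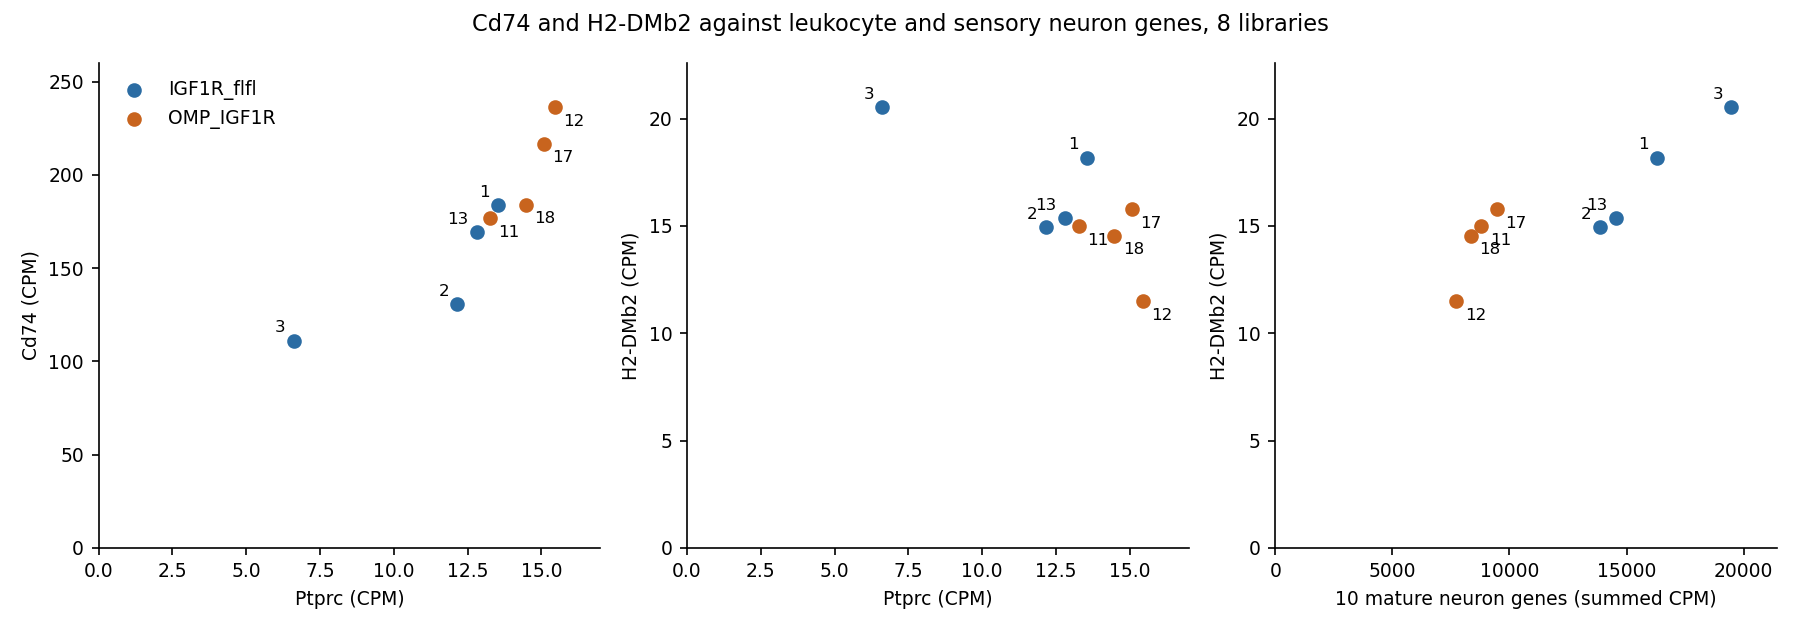
Cd74 against Ptprc (left), H2-DMb2 against Ptprc (middle) and H2-DMb2 against the summed CPM of 10 mature sensory neuron genes (right), all axes in CPM from 0, 1 point per library labelled by replicate number. Cd74 climbs with Ptprc through all 8 libraries, and in the right panel the 4 libraries of each group stand in the same order on both axes.

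Within each group H2-DMb2 stood instead in the order of the sensory neuron genes. The 10 mature neuron genes, all called lower, summed to 16281, 13847, 14553 and 19470 CPM in the IGF1R_flfl-titled set and to 8804, 7732, 9446 and 8357 CPM in the OMP_IGF1R-titled set. The libraries fall into separate clusters on this axis, with fewer than 6 in each, so no pooled correlation is given. Within the IGF1R_flfl-titled set the neuron sum ascended from replicate 2 through 13 and 1 to 3, and H2-DMb2 did the same (14.9, 15.4, 18.2 and 20.5 CPM). Within the OMP_IGF1R-titled set it ascended from 12 through 18 and 11 to 17, and so did H2-DMb2 (11.5, 14.6, 15.0 and 15.8 CPM). Per unit of Ptprc, H2-DMb2 was 1.34, 1.23, 1.199 and 3.10 in the first group and 1.13, 0.74, 1.05 and 1.01 in the second. Per unit of Omp it was 0.00305 to 0.00334 in the first group and 0.00673 to 0.00782 in the second, without overlap. Between the groups, Omp thus differed by more than H2-DMb2. The order was noticed in these data, and whether H2-DMb2 RNA lay in neurons was not tested.

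Genes with the most similar course over the 8 libraries were ranked by Pearson's r with the mean standardised log2 CPM of Cd74, H2-Aa, H2-Ab1 and H2-Eb1, among 14738 genes. Of the first 10, 4 were class I heavy chain genes, their activator or a transcript beside them: Gm11131 (0.984), which overlaps the start of H2-Q4, H2-D1 (0.966), H2-Q4 (0.965) and Nlrc5 (0.963), the class I counterpart of Ciita. Cfb, complement factor B, which lies in the same complex on chromosome 17, stood at 0.970. The others were Gm16048, Gimap4, a GTPase of lymphocytes, Kdm1b, a histone demethylase, Plbd1 and Col8a1, a collagen chain. None of the 10 was called, and Col8a1 had the smallest adjusted p (0.0687, edgeR). Ranked by Spearman's rho instead, 2 of the 10 remained among the first 10, Gm11131 and Cfb (rho 0.952 for both). Nlrc5 (rho 0.905), H2-Q4 (0.786) and H2-D1 (0.762) did not, so the place of these class I genes depends on the measure.

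The other genes of the class II pathway gave few calls. Of 12 factors that act at class II promoters none was called (median log2 fold change 0.08, against -0.01 for all genes). Irf1, which carries the interferon signal to Ciita, had the smallest p among them, at 22.6, 20.1, 21.8 and 18.6 CPM against 25.9, 25.7, 23.4 and 21.96 CPM (log2 fold change 0.22, SE 0.0837, adjusted p = 0.144, edgeR). Of 13 genes of antigen processing none was called higher and 1 lower with edgeR, against 2 lower with DESeq2 and with limma. The gene called with edgeR was Ctsb, a lysosomal protease, at 797, 807, 806 and 818 CPM against 698, 680, 736 and 668 CPM (log2 fold change -0.21, SE 0.0570, adjusted p = 0.0498, edgeR), a call that 12 of 15 alternatives lost. None of 7 co-stimulation genes tested was called (median 0.16).

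Of 21 class I presentation genes none was called with edgeR, against 8.20% of all genes, and 3 were called higher with DESeq2. DESeq2's share over all genes is not given here, so its counts in this list and the next are not read as a result. The authors' deposited table had 2122 of the genes tested here at an adjusted p under 0.05. In edgeR's fit 15 had fold changes above 0 and 7 an unadjusted p under 0.05, against 23.5% of all genes with such a p. H2-K1 was at 191, 148, 205 and 144 CPM in the IGF1R_flfl-titled set and 196, 284, 243 and 208 CPM in the OMP_IGF1R-titled set (log2 fold change 0.44, SE 0.148, adjusted p = 0.110, edgeR). H2-Q4, a further class I heavy chain gene, had a log2 fold change of 0.42 (SE 0.139, adjusted p = 0.102, edgeR). Of 20 genes of the interferon gamma receptor and response tested none was called with edgeR and 1 was called higher with DESeq2. In edgeR's fit 18 had fold changes above 0, and the median was 0.43. Socs1, a feedback inhibitor of interferon signalling (log2 fold change 0.51, adjusted p = 0.0873), and Irgm1, an interferon-induced GTPase (0.45, adjusted p = 0.0920, edgeR for both), were nearest to the threshold. Ifng itself had too few counts to be tested.

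**Figure D5:**
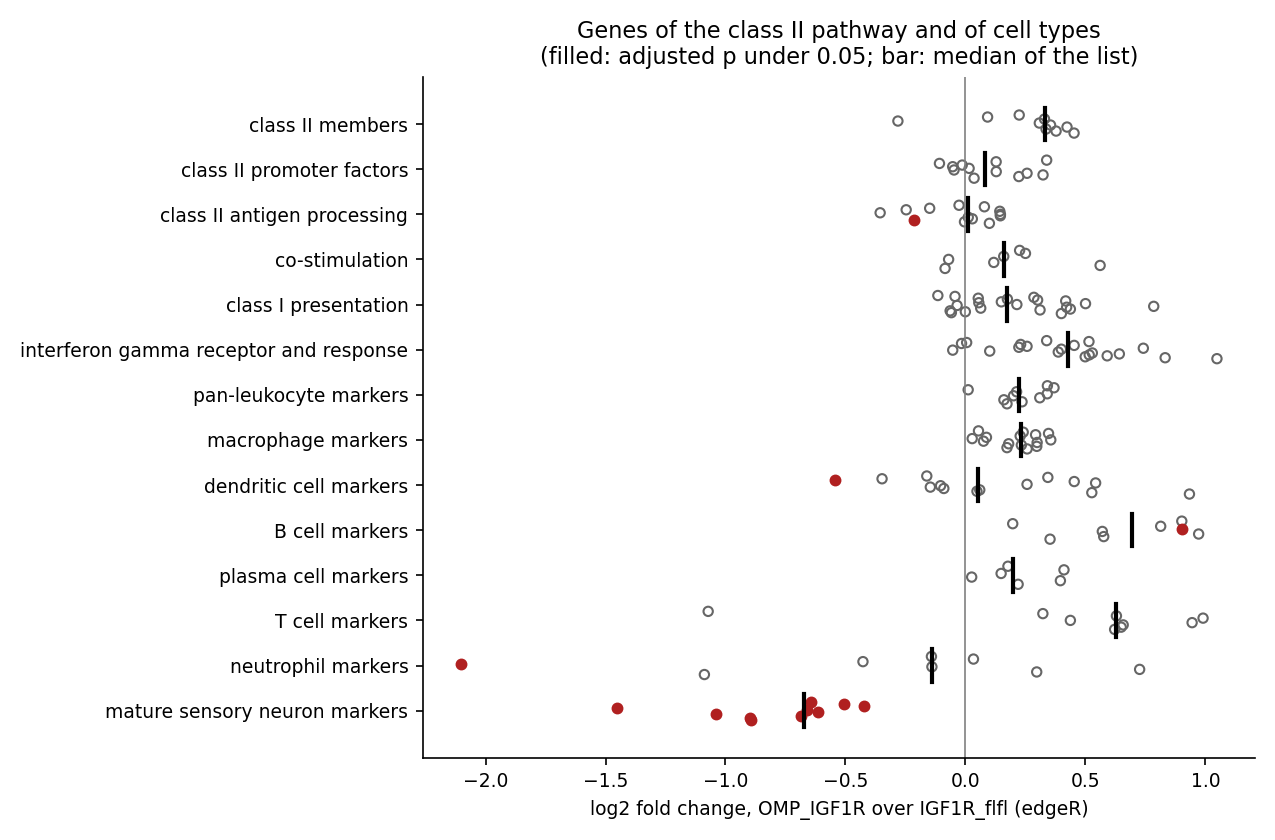
log2 fold change, OMP_IGF1R over IGF1R_flfl (horizontal axis, edgeR), of each tested gene in the class II set, its pathway lists and cell type marker lists (rows); filled points have an adjusted p under 0.05 and the bar is the median of the list. The class II median is 0.33 with no filled point, and the mature sensory neuron row has 10 filled points, all below 0.

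The 8 members on chromosome 17 lie within 224 kb (34092340 to 34316199), where the deposited table lists 17 genes. Of the 9 genes between them that are not members, 7 were tested, none was called and 2 were listed at 0. Psmb8 and Psmb9, subunits of the immunoproteasome, had log2 fold changes of 0.42 (SE 0.181) and 0.30 (SE 0.144), and Tap1, a chain of the peptide transporter for class I, had 0.29 (SE 0.163). Brd2, a chromatin reader at the end next to H2-Oa, and Tap2, the partner chain of Tap1, stood at -0.05 (SE 0.0739) and -0.04 (SE 0.0666). Psmb9 and Tap1 overlap in the deposited coordinates, as Gm20496 does with Psmb8 and Tap2, and Gm15821 lies within Tap2, so their counts may be shared. These 5 genes were picked with their values in view.

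In the authors' deposited table, which ran the comparison in the same direction, Cd74 was the single member at an adjusted p under 0.05 (log2 fold change 0.39, SE 0.131, adjusted p = 0.0272). Of all genes tested here, 2122 were at an adjusted p under 0.05 in the authors' deposited table. The authors' deposited table gave adjusted p-values of 0.0724 for H2-DMa, 0.110 for H2-Ab1, 0.119 for H2-DMb1, 0.121 for Ciita, 0.167 for H2-Eb1, 0.232 for H2-Aa, 0.239 for H2-DMb2 and 0.757 for H2-Ob, and none for H2-Oa. Cd74 thus lay on either side of the threshold depending on the tool.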

How the data were processed

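Per the labels' protocols, stranded TruSeq poly-A libraries were read as 100 bp pairs on a HiSeq2500. Per the submitters' processing notes, reads were handled with TopHat2 2.0.14, Trim Galore 0.3.7 and SAMtools 1.2 on GRCm38 (mm10), and DESeq2 was used. For the counting step and its strand setting, nothing is given in the sources used here. The authors deposited raw counts per gene and library. The authors' comparison table holds log2 fold changes and their errors, p-values before and after adjustment, a score (the test statistic) and a mean normalized signal. Description text attached to 23 identifiers was trimmed. Counts were tested in edgeR 4.0.16 (R 4.3.3; TMM, filterByExpr, quasi-likelihood F-test, 17381 genes), checked on simulated data. log2 CPM for correlations used a prior count of 2. Levels per kilobase used the longest protein-coding transcript tagged as principal in GENCODE M21, and promoter windows came from RefSeq.

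The members and the 18 other gene lists (210 of 217 entries found) were chosen with earlier results of these data known. Named beside the members were each list's called genes up to 6, otherwise up to 2 with the smallest p, the defining markers Ptprc, Itgax, Adgre1 and Cd3e (a further marker is not reported here), Igf1r and Omp, the 10 genes most like the classical genes, and called genes of the chromosome 17 interval. Genes named outside this rule were chosen with their values in view. Alternatives were other scaling factors, other count filters, DESeq2 1.42.0, limma 3.58.1 (voom with sample weights) and leaving out libraries. Intervals are at 95%.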

Additional observations from a re-analysis of the deposited data

Results flagged for a closer look

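Single libraries stood apart from the other 3 of their group in 9 of 86 groups of 4 values examined by Dixon's ratio of gap to range at its 95% critical value, which chance gives in about 1 of 20 groups. Among the class II genes, H2-Ob was at 1.28 CPM in OMP_IGF1R 11, against 2.21 to 2.38 CPM in the other 3. The ratio of H2-DMb2 to Ptprc was 3.10 in IGF1R_flfl 3, against 1.199 to 1.34. The ratio of H2-DMb1 plus H2-DMb2 to H2-DMa per kilobase was 2.52 in OMP_IGF1R 12, against 2.91 to 2.96. The others were sums over marker lists. Plasma cell genes summed to 159 CPM in OMP_IGF1R 17 (others 107 to 116), T cell genes to 67.1 CPM in IGF1R_flfl 2 (others 8.57 to 17.7) and neutrophil genes to 880 CPM in IGF1R_flfl 13 (others 97.9 to 201). The sum of the bulb and oligodendrocyte list was 2117 CPM in IGF1R_flfl 2 (others 164 to 191), and that of the skeletal muscle list 14.3 CPM in IGF1R_flfl 2 (others 2.82 to 3.19) and 535 CPM in OMP_IGF1R 17 (others 3.13 to 5.87). The neutrophil sum in IGF1R_flfl 13 was mostly Ltf (862 CPM), with S100a8 and S100a9 at 3.72 and 6.63 CPM. In IGF1R_flfl 2, Thy1 gave 62.5 CPM of the T cell sum and Pvalb 11.4 CPM of the skeletal muscle sum. These flags thus reflect single genes and not the cell types as a whole. IGF1R_flfl 2 and OMP_IGF1R 17 stood apart in more than 1 of these sums. With both left out, 0 of the 10 class II genes were called. The cause of these values was not tested.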

How the results depend on the processing

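Over 15 alternatives the 10 class II genes gave 149 fold changes, of which 146 kept their direction and their side of the threshold. With DESeq2 the number of class II genes called was 1 in place of 0: Cd74, at a log2 fold change of 0.46. H2-Oa ranged from -0.10 to 0.29 with each library left out in turn, reversing to -0.10 without IGF1R_flfl 3 and to -0.01 without OMP_IGF1R 11, and with at least 1 CPM required in 4 libraries it was not tested. Leaving out each library in turn, 0 class II genes were called, and the summed class II level differed by 0.25 to 0.49 on the log2 scale (0.37 with all 8). The number of all genes called was 1425 with all libraries and 569 to 1477 without 1 library. Among the IGF1R_flfl libraries, leaving out replicate 1 gave 841 and replicate 3 gave 886. Among the OMP_IGF1R libraries, leaving out replicate 11 gave 724, replicate 12 gave 613 and replicate 18 gave 569, each fit having fewer libraries. Of 270 counts over the other gene lists, 47 moved, either by over 1.5 times or from 0 to any other count. Outside the mature sensory neuron list, with 10 calls, the counts in the main fit were 0 or 1, so 1 gene could move them. No paired analysis was possible because the groups share no replicate numbers. H2-Oa and H2-Ob had the fewest counts of the members (11 to 24 and 23 to 68 per library).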

Other observations

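Marker lists of the other cells in or beside the epithelium were read in the same fit. None of 6 plasma cell genes was called, with all 6 fold changes above 0 (median 0.20). Of 8 neutrophil genes 1 was called lower, Mpo, the granule peroxidase, at 0.72, 2.17, 1.23 and 0.52 CPM in libraries titled IGF1R_flfl and 0.41, 0.30, 0.18 and 0.19 CPM in the others (log2 fold change -2.10, SE 0.504, adjusted p = 0.0344, edgeR). That call was lost without IGF1R_flfl 13 or without any single OMP_IGF1R library. None of 8 sustentacular cell genes was called (median 0.02). Of 7 respiratory epithelium genes 1 was called lower, Tekt1, a protein of ciliary microtubules (log2 fold change -0.52, SE 0.101, adjusted p = 0.0164, edgeR). Of 9 bulb and oligodendrocyte genes 1 was called lower, Eomes, which marks output neurons of the bulb (log2 fold change -0.49, SE 0.119, adjusted p = 0.0353, edgeR), a call lost in 6 of 15 alternatives. Eomes was at 15.7 CPM in IGF1R_flfl 2, the lowest of its group, although the sum of this list was highest there. None of 3 skeletal muscle genes tested was called.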
